A study of Saccharomyces cerevisiae with 5 samples.

Results

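The genes examined encode the DNA replication machinery of budding yeast, from the complexes that mark and open origins to the polymerases, the sliding clamp and the ligase of the fork. They were taken as a list of 46 gene names by their role and not by a measured value, although earlier results of these arrays were known when the list was drawn up. Probes named for 43 of them were on the array, 40 held a value on all 3 arrays and could be tested, and the array as a whole carried 5379 genes, of which 4824 were tested. MCM3, MCM7 and POL2 had no probe named for them and were not analysed here. ORC1 and MCM10 held values on 2 arrays and SLD2 on 1 array.

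The treated cells were Saccharomyces cerevisiae S288C, a laboratory strain, grown in rich YPD medium at 25 °C to an optical density of 1 and then exposed to 10 mM copper sulfate for 2 h. The control cells were of the same strain, medium and temperature and grew on for 2 h without copper. PolyA RNA from treated cells carried Cy5 and that from control cells Cy3 on each of 3 arrays of 2 colours, which the series describes as independent biological samples. Values are log2 ratios per array, and treated over control is their likely direction, since the labels list the treated channel first. Every direction given here would turn under the opposite reading. The labels do not say whether each array had its own control culture. The p-values weigh each mean ratio against a moderated spread between arrays. In it, limma draws the variance of each gene towards a value typical of all tested genes. The intervals rest on this moderated spread too, whereas the SD printed beside a mean is the gene's own. MCM5 had an SD of 0.86 and a moderated standard error of 0.28, and CDC21 had 0.039 and 0.141. If a control culture was shared, the spread between arrays leaves out variation between control cultures. The number of arrays limits the precision. All arrays had the same dye orientation, and a dye bias of a gene and an effect of copper cannot be told apart.

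In budding yeast, the origin recognition complex stays on origins through the cycle, and Cdc6 with Cdt1 loads the Mcm helicase ring onto them in G1. The Cdc7 and Dbf4 kinase and the S phase cyclin kinase then recruit Cdc45 and the GINS complex, which turns the ring into an active helicase. Polymerase alpha with primase starts each strand, polymerases epsilon and delta extend the leading and lagging strands, and the clamp loader places the clamp that holds polymerase delta on DNA. Many of these genes are transcribed in waves: the MCM genes and CDC6 around the end of mitosis, and polymerase, replication protein A and ligase genes at the G1/S transition under the MBF factor. The arrays measured whole cultures, so fewer cells in a phase of the cycle and less RNA per cell cannot be told apart.

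The replication machinery showed small ratios on both sides of 0 under 10 mM copper. CDC6, which loads the helicase, and POL12, the regulatory subunit of polymerase alpha, rose about 1.58-fold and 1.50-fold, and PSF1, a GINS subunit, fell to 0.651-fold. None of the other 37 tested members passed the test. The count was 2 higher and 1 lower of 40 (7.5%), where the same limma fit, with Benjamini-Hochberg adjustment and an adjusted p under 0.05, called 23.5% of all 4824 tested genes, 11.5% higher and 12.0% lower. The members' share of calls thus lay below that of the array, and this difference was not tested.

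The mean log2 ratios of the 40 tested members ran from -0.62 to 0.66, with 19 above 0 and 21 below. Their median was -0.0025, and that of all tested genes was -0.044. The median size of the ratio, disregarding its sign, was 0.18 for the members and 0.30 for all tested genes. No tested member changed by 2-fold or more on average, against 4.64% of all tested genes, and 4.5% of all tested genes passed the test with such a change. For 38 of 40 members the whole 95% interval of the mean lay between a 2-fold fall and a 2-fold rise, as it did for 81.8% of all tested genes. The exceptions were CDC6, whose interval reached 2.12-fold, and RFC5, whose interval reached down to 0.483-fold. The 38 include MCM5 and POL1, whose arrays ranged over 1.52 and 1.73 log2 units, with SDs of 0.86 and 0.95. Their place within 2-fold depends on the moderated spread. The median interval extended 0.36 log2 units to each side for members and for all genes alike. Changes smaller than this were mostly beyond the reach of 3 arrays even before adjustment. After adjustment some larger means did not pass either, among them CDC45 at 0.48 and RFC5 at -0.61.

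At an unadjusted p under 0.05, 9 of 40 members (22.5%) passed, 4 higher and 5 lower, against 40.2% of all tested genes. Beside the 3 called members these were ORC6 and CDC45 on the higher side and RFC5, POL32, PRI1 and PRI2 on the lower side. The same sign on all 3 arrays was held by 21 members (52.5%), of which 10 were above 0 and 11 below, and by 59.4% of all tested genes.

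**Figure D1:**
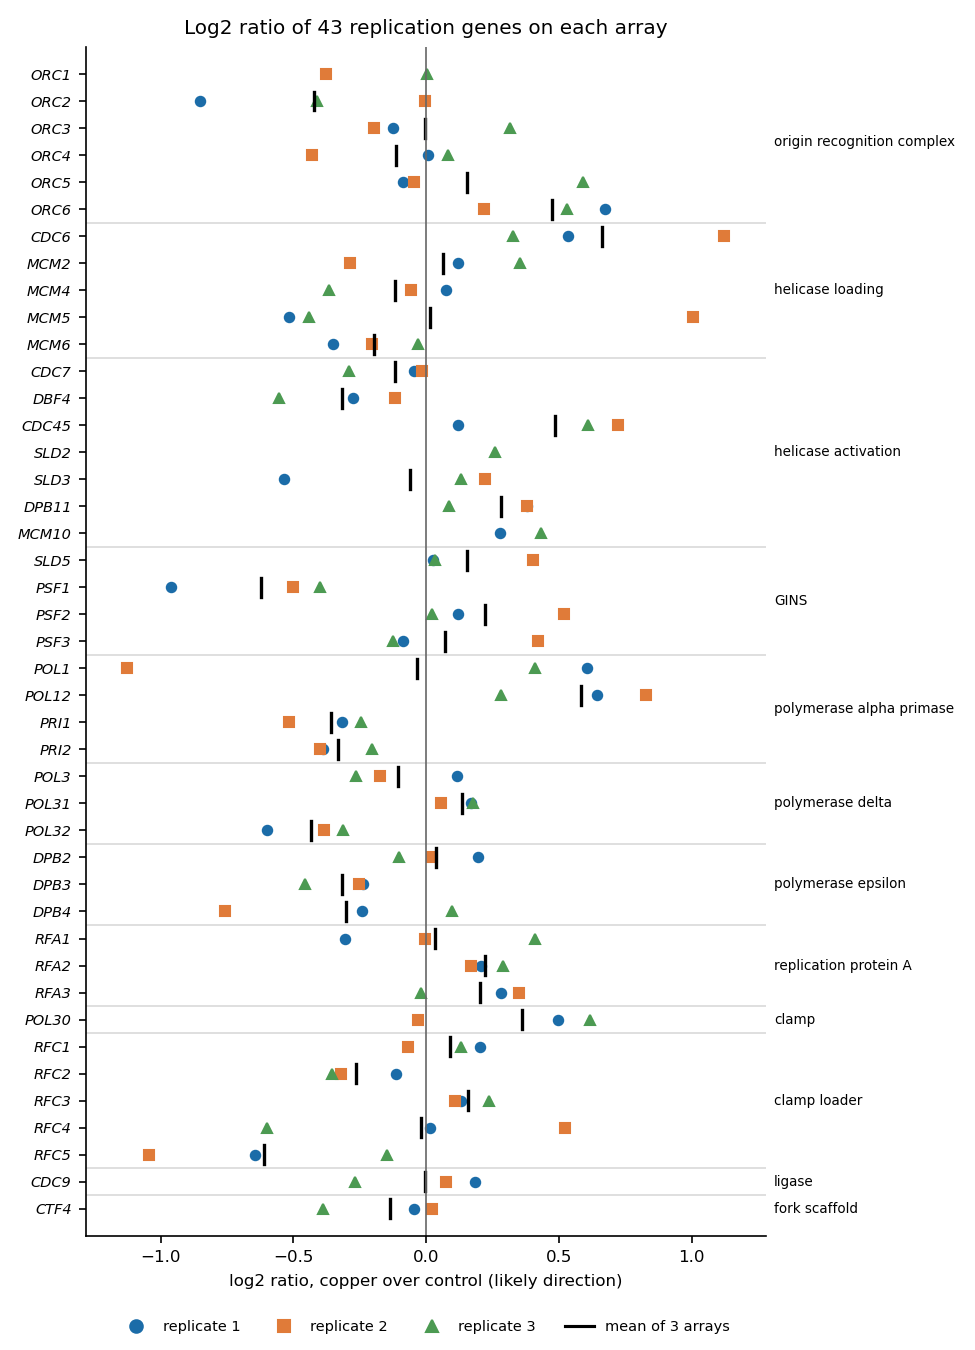
Log2 ratio (copper over control, likely direction) of 43 replication genes, grouped by complex, with a marker for each array and a bar for the mean where all 3 arrays held a value. Most means lie within 0.5 of 0 on either side, and POL1 and MCM5 have a replicate 2 value far from the other arrays.

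Copper responses on the same arrays were much larger. CUP1-1, the copper metallothionein gene, read 5.41, 5.002 and 2.57 on replicates 1, 2 and 3, and CTR1, the copper transporter gene, read -3.86, -3.47 and -2.06. Replicate 3 gave the smallest ratio of both genes. Replicate 2 was the mean of a high- and a low-power scan where both held a value, and replicate 3 was its high-power scan, because the series sets its low-power data aside. Between 5264 and 5952 of the 6912 spots held a value on the single or high-power scan of an array. A low-power value on replicate 2 was held by 30.2% of the 43 members on the array and by 50.8% of all genes. The tested members that had one (13) varied over the 3 arrays by a median SD of 0.196, and the 27 without it by 0.277, close to the 0.225 and 0.277 of all genes split in the same way.

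The origin recognition complex, which binds origins throughout the cycle, had 0 of 5 tested subunits past the threshold in limma, 1 with an unadjusted p under 0.05 and a median of -0.0028. This count and those of the complexes below stand beside the 23.5% called over all tested genes, and none was tested against it. ORC6, the smallest subunit, read 0.67, 0.22 and 0.53 on replicates 1, 2 and 3. All arrays were above 0, and the mean of 0.47 ± 0.23 (SD, n = 3) just missed the threshold in limma (adjusted p = 0.0584). It passed when arrays were centred on their median (limma adjusted p = 0.0439), scaled to equal spread (0.0491) or weighted (0.0188), in a range over alternatives that reached 0.381. ORC2 read -0.85, -0.0056 and -0.41, with replicate 1 far below replicate 2 and a mean of -0.42 ± 0.42. It passed with array weights alone (-0.59, limma adjusted p = 0.0302), a setting that called 33.5% of all tested genes. ORC3, ORC4 and ORC5 had means of -0.0028, -0.11 and 0.15, each with both signs among its arrays. ORC1, the largest subunit and an ATPase, held -0.38 on replicate 2 and 0.0049 on replicate 3.

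Among the helicase loading genes, CDC6 stood apart from the MCM genes in value. It read 0.54, 1.12 and 0.33 on replicates 1, 2 and 3. Every array was above 0, and replicate 2 was the highest. The mean was 0.66 ± 0.41 (SD, n = 3; limma adjusted p = 0.0361, higher on 3 of 3 arrays). The low-power scan of replicate 3 gave -0.044 for the same spot, and with it averaged in the mean was 0.60 (limma adjusted p = 0.0619). With all scans and the array as a random block the mean of CDC6 was 0.58 and the call was lost as well (limma adjusted p = 0.0739). Without replicate 2 the mean of CDC6 was 0.43 (limma adjusted p = 0.138) and without replicate 1 it was 0.73 (0.053).

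The 4 tested genes of the Mcm ring, MCM2, MCM4, MCM5 and MCM6, had means between -0.19 and 0.064, and none passed the test. MCM2 read 0.12, -0.29 and 0.36, and MCM4 read 0.076, -0.058 and -0.37. MCM6 was below 0 on every array, at -0.35, -0.20 and -0.029. MCM5 read -0.52, 1.005 and -0.44. Replicates 1 and 3 of MCM5 lay close together and replicate 2 lay about 1.5 log2 units above them, so its mean of 0.015 ± 0.86 describes none of the arrays. Without replicate 2 the mean of MCM5 was -0.48 (limma adjusted p = 0.106). The 95% intervals of MCM2, MCM4 and MCM6 ran from 0.799 to 1.37-fold, 0.721 to 1.18-fold and 0.691 to 1.11-fold, while that of MCM5 ran from 0.644 to 1.59-fold.

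The genes that activate the helicase gave 0 calls among 5 tested in limma, with 1 unadjusted p under 0.05. CDC45, whose protein travels with the ring as part of the active helicase, read 0.12, 0.72 and 0.61. All arrays were above 0, and the mean of 0.48 ± 0.32 (SD, n = 3) missed the threshold in limma (adjusted p = 0.0682) and under every alternative tried (lowest adjusted p 0.0567). The kinase subunit genes CDC7 and DBF4 were below 0 on each array. CDC7, the catalytic subunit, read -0.046, -0.016 and -0.29. DBF4, the regulatory subunit whose abundance sets the kinase's activity, read -0.27, -0.12 and -0.55, with a mean of -0.31 ± 0.22 (limma adjusted p = 0.166). DPB11, the scaffold that brings phosphorylated Sld2 and Sld3 together, was above 0 on each array, at 0.38, 0.38 and 0.085. SLD3 read -0.53 on replicate 1 but 0.22 and 0.13 on the others. SLD2 held 0.26 on replicate 3 alone, and MCM10, needed for the helicase to open DNA, held 0.28 and 0.43 on replicates 1 and 3.

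The GINS complex held the called fall of PSF1, and its other subunits lay at or above 0 on average. PSF1 read -0.96, -0.50 and -0.40, below 0 on all arrays and lowest on replicate 1, with a mean of -0.62 ± 0.30 (SD, n = 3; limma adjusted p = 0.0319). On the low-power scan of replicate 3 the same spot read 0.29, which is the widest disagreement between scans of that array among the 32 members measured on both. With both scans averaged the mean was -0.50 and the call was lost (limma adjusted p = 0.0901), as it was with all scans and the array as a random block (-0.49, adjusted p = 0.196), without replicate 1 (-0.45, adjusted p = 0.281) and without replicate 2 (-0.68, adjusted p = 0.062). SLD5 and PSF2 were above 0 on every array, with means of 0.15 ± 0.22 and 0.22 ± 0.26. PSF3 read -0.088, 0.42 and -0.13. The subunits of this complex, which assemble in equal numbers, thus had mean ratios between -0.62 and 0.22.

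Polymerase alpha and primase form a 4-subunit enzyme, and its genes differed in sign. POL12 read 0.64, 0.83 and 0.28. It was above 0 on all arrays, with a mean of 0.59 ± 0.28 (SD, n = 3; limma adjusted p = 0.0358). It passed in 10 of 12 alternatives and lost the call without replicate 1 (0.56, limma adjusted p = 0.16) and without replicate 2 (0.46, adjusted p = 0.13). The low-power scan of replicate 3 read 0.27, close to the 0.28 of the high-power scan.

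The primase genes lay on the other side. PRI1, the catalytic subunit that makes the RNA primer, read -0.32, -0.52 and -0.24, and PRI2, the large subunit, read -0.39, -0.40 and -0.20. Both were below 0 on every array, and neither passed (limma adjusted p = 0.105 and 0.124). The low-power scan of replicate 3 gave 0.19 for PRI1 and -0.66 for PRI2. POL1, the polymerase subunit itself, read 0.61, -1.13 and 0.41. Replicates 1 and 3 were well above 0 and replicate 2 was the lowest value of any member on any array, so the mean of -0.036 ± 0.95 describes none of them. Without replicate 2 the mean of POL1 was 0.51 (limma adjusted p = 0.095). At 4407 bases POL1 was the longest tested member.

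The genes of the elongating polymerases gave 0 calls in limma among 6 tested, 3 of polymerase delta and 3 of polymerase epsilon, with 1 unadjusted p under 0.05. POL32, a subunit of polymerase delta that binds the clamp, read -0.60, -0.38 and -0.31, below 0 on all arrays (mean -0.43 ± 0.15, limma adjusted p = 0.0648). It had an unadjusted p of 0.0182 and passed after adjustment with array weights alone (limma adjusted p = 0.0233). POL31, the other small subunit, was above 0 on every array, at 0.17, 0.058 and 0.18, and POL3, the catalytic subunit, read 0.12, -0.17 and -0.26. In polymerase epsilon, DPB3 was below 0 on all arrays, at -0.24, -0.25 and -0.46. DPB4, its histone-fold partner, read -0.24, -0.76 and 0.097, and DPB2, the essential second subunit, had a mean of 0.039 ± 0.15.

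At the fork, replication protein A, which coats single-stranded DNA, had means of 0.035, 0.22 and 0.20 for RFA1, RFA2 and RFA3, with 0 of 3 past the threshold in limma and 0 with an unadjusted p under 0.05. RFA2 was the steadiest, at 0.21, 0.17 and 0.29. POL30, the clamp gene (PCNA), read 0.50, -0.031 and 0.62. Replicates 1 and 3 were high and replicate 2 lay at 0, and the mean of 0.36 ± 0.35 missed the threshold (limma adjusted p = 0.154). CDC9, the ligase that seals Okazaki fragments, and CTF4, the scaffold that links polymerase alpha to the helicase, had means of -0.0023 ± 0.23 and -0.14 ± 0.22.

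Of the 5 clamp loader genes 0 passed in limma, with 1 unadjusted p under 0.05, and RFC5 had the lowest mean ratio. It read -0.64, -1.05 and -0.15, below 0 on all arrays and closest to 0 on replicate 3. Its mean of -0.61 ± 0.45 (SD, n = 3) missed the threshold narrowly (limma adjusted p = 0.0509) and passed in 6 of 13 alternatives, among them without replicate 3 (-0.84, limma adjusted p = 0.0131). The other subunits were RFC1 (0.089 ± 0.14), RFC2 (-0.26 ± 0.13), RFC3 (0.16 ± 0.068) and RFC4 (-0.020 ± 0.56). RFC4 differed between arrays by 1.12 log2 units, with 0.52 on replicate 2 and -0.60 on replicate 3. RFC2 and RFC3 had opposite signs on every array with the scans of replicate 2 averaged. On the high-power scan of replicate 2 alone both were below 0, at -0.36 for RFC2 and -0.013 for RFC3.

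**Figure D2:**
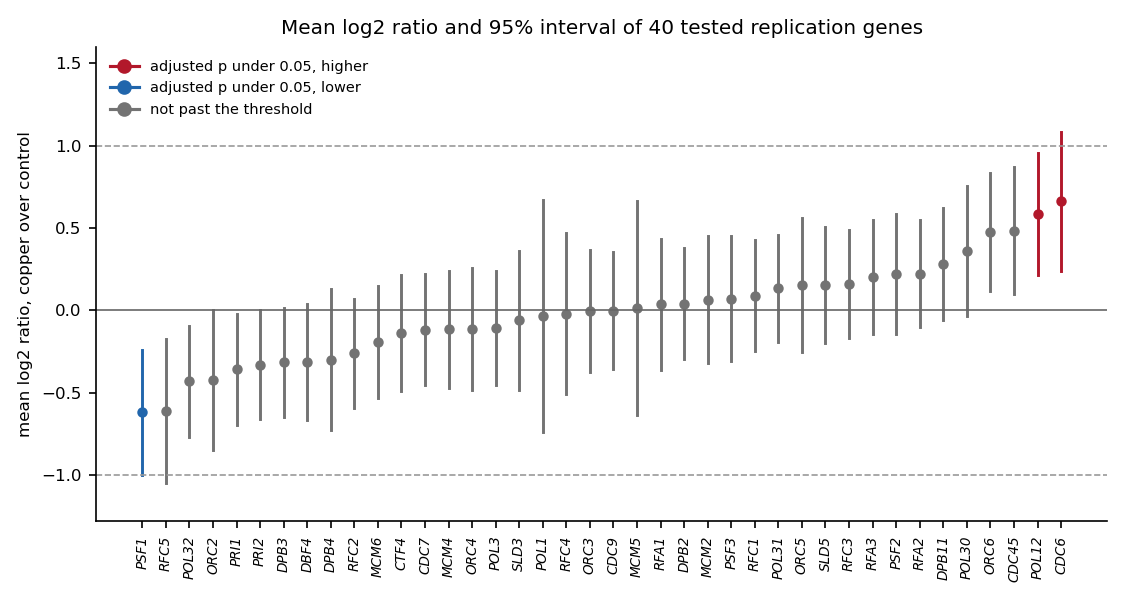
Mean log2 ratio (points) and 95% limma interval (lines) of 40 tested replication genes in order of the mean, with dashed lines at a 2-fold rise and fall. CDC6 and POL12 are past the threshold on the higher side and PSF1 on the lower, and the intervals of 38 genes stay between the dashed lines.

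Genes that are transcribed periodically were then set beside the rest. The M/G1 class held the MCM ring genes and CDC6 (5 of 7 tested), the G1/S class held 17 polymerase, primase, replication protein A, clamp, ligase and initiation genes (15 tested), and 22 members (20 tested) fell in neither, among them CDC7, the origin recognition complex and the clamp loader. The classes come from general knowledge of the yeast cell cycle and not from these arrays, and the third class was not shown here to be constant. Called members numbered 1 of 5 in the M/G1 class (CDC6), 1 of 15 in the G1/S class (POL12) and 1 of 20 in the remaining class (PSF1). The median of the mean log2 ratios was 0.015, -0.0023 and -0.011 in the 3 classes. In the M/G1 class this median is the mean of MCM5, whose arrays differed widely.

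The order of the classes changed from array to array. On replicate 1 the class medians were 0.076, 0.12 and -0.067 for M/G1, G1/S and remaining members. On replicate 2 they were -0.058, -0.0022 and -0.011, and on replicate 3 they were -0.029, -0.10 and 0.059. The G1/S median minus that of the remaining members was therefore 0.19 on replicate 1, 0.0087 on replicate 2 and -0.16 on replicate 3. A sign permutation over 3 arrays cannot give a two-sided p below 0.25, and no p is given. Within the G1/S class the means ran from -0.36 for PRI1 to 0.59 for POL12.

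**Figure D3:**
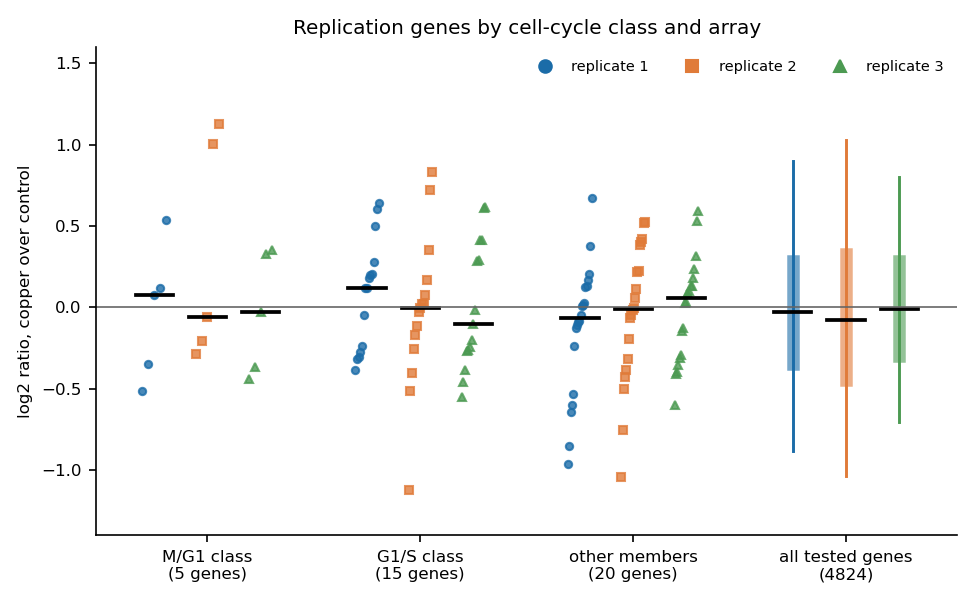
Log2 ratio of tested replication genes on each array (points) by cell-cycle class, with the median as a black bar, beside all 4824 tested genes (thick line from the 25th to the 75th percentile, thin line from the 5th to the 95th). The class medians lie between -0.10 and 0.12 and change order between arrays.

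The arrays ranked the members less alike than they ranked genes in general. Over the 40 tested members, Spearman's rho was 0.429 between replicates 1 and 2, 0.532 between replicates 1 and 3 and 0.155 between replicates 2 and 3, as a description without a test. Over all 4824 tested genes, which share the same arrays and control channels, the values were 0.681, 0.631 and 0.565. The members' range over the 3 arrays exceeded 1 log2 unit in 7.5% of cases (POL1, MCM5 and RFC4) and in 9.33% of all tested genes. The median SD over arrays was 0.23 for members and 0.25 for all tested genes. The members also had smaller ratios, with a median size of 0.18 against 0.30. The part of these smaller ratios in the lower rho was not tested.

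The high- and low-power scans of the same array showed how far a value depended on the scan. They differ in power and are not repeat readings, and the series sets the low-power data of replicate 3 aside. On replicate 2, where 13 members had both scans, the median absolute difference between high and low power was 0.119 log2 units, against 0.116 over all genes. SLD5 differed the most, at 0.77 and 0.041, and 5 of the 13 members changed sign between scans. On replicate 3 the median difference of 32 members was 0.177, against 0.147 over all genes, and 7 members changed sign, CDC6 and PSF1 among them. Both scans read 1 hybridisation, and these differences therefore leave out the spread between cultures.

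**Figure D4:**
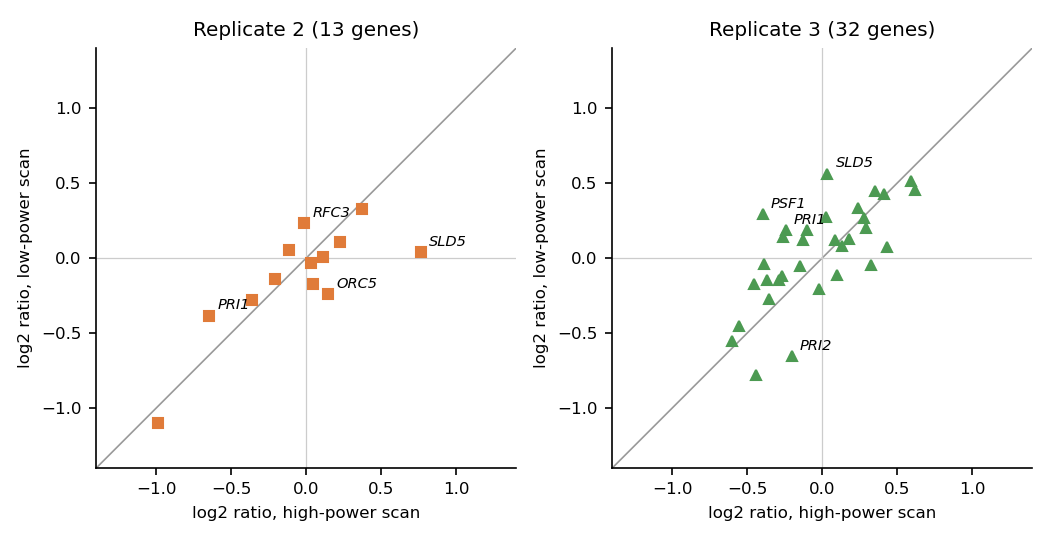
Log2 ratio of replication genes on the low-power scan against the high-power scan of the same array, for 13 genes of replicate 2 and 32 genes of replicate 3, with the line of equality; the 4 genes with the widest difference are named in each panel. In the panel of replicate 3, PSF1 lies at -0.40 at high power but at 0.29 at low power.

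Other genes of replication were read from 3 lists of 35 genes in all, of which 30 were tested. In the list of fork and lagging-strand factors, which also held TAH11 and SLD7 of origin licensing and firing, 1 of 16 tested genes rose and 4 fell, and TAH11 and SLD7 were 2 of those 4. Of 7 genes of the S phase kinase and its control 0 rose and 2 fell, and of 7 tested genes of deoxynucleotide supply 3 rose and 0 fell. Together 10 of 30 (33.3%) passed, beside 23.5% of all tested genes. The list medians were -0.057, 0.082 and -0.17, beside -0.044 over all tested genes.

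The lowest ratios belonged to factors of origin firing and licensing. TAH11, the yeast CDT1 that loads the Mcm ring together with Cdc6, read -0.95, -0.89 and -1.15 on replicates 1, 2 and 3. The arrays lay close together, and the mean of -0.996 ± 0.14 (SD, n = 3; limma adjusted p = 0.0042) was past the threshold in 13 of 13 alternatives. SLD7, the partner of Sld3, read -1.03, -1.16 and -1.22, again close together (mean -1.14 ± 0.10, limma adjusted p = 0.00254), and passed in 12 of 12. Their nearest counterparts among the members, CDC6 and SLD3, had means of 0.66, past the threshold, and -0.060, not past it.

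The largest rises were in nucleotide supply, although 4 of the 7 tested genes of that list had means below 0. RNR1, the large subunit of ribonucleotide reductase, read 1.03, 1.05 and 1.81 (mean 1.30 ± 0.44, limma adjusted p = 0.0042). DUT1, the dUTPase that keeps uracil out of DNA, read 0.83, 1.10 and 1.25 (mean 1.06 ± 0.21, limma adjusted p = 0.00405). Both were high on all arrays and passed in 13 of 13 alternatives. CDC21, thymidylate synthase, rose less (0.48 ± 0.039, limma adjusted p = 0.0434) and lost its call whichever replicate was left out (adjusted p between 0.0745 and 0.27), with the array as a random block (0.0502) and with genes on at least 2 arrays (0.0511). Below 0 were RNR2, RNR4, DCD1 and CDC8, with means of -0.17, -0.30, -0.445 and -0.51, and none of them passed. RNR1 and CDC21 are, like POL1 or CDC9, known G1/S genes, and the G1/S members of the machinery had a median of -0.0023.

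RRM3, a helicase that helps forks past bound proteins, fell by 0.63 ± 0.20, and RNH202, a subunit of ribonuclease H2, fell by 0.60 ± 0.23. RNH203, another subunit of ribonuclease H2, rose (0.62 ± 0.24), and its value was 0.26 after correction for coding length (limma adjusted p = 0.211). RNH201, a further subunit, was above 0 on all arrays, at 0.65, 0.96 and 0.12. Its mean of 0.58 ± 0.43 missed the threshold (limma adjusted p = 0.0562). SIC1, the inhibitor of the S phase kinase, fell by 0.66 ± 0.15, and GLC7, the phosphatase that opposes Dbf4-dependent phosphorylation at origins, fell by 0.61 ± 0.18. Without replicate 1 the calls of RRM3, RNH202, RNH203, SIC1 and GLC7 were lost, and also without replicate 2, with limma adjusted p between 0.0525 and 0.2, and that of GLC7 without replicate 3 as well (0.0684). RRM3 also lost its call with all scans and the array as a random block (-0.53, limma adjusted p = 0.0923). The S phase cyclin genes CLB5 and CLB6 had means of 0.24 ± 0.37 and 0.54 ± 0.62 and did not pass.

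**Figure D5:**
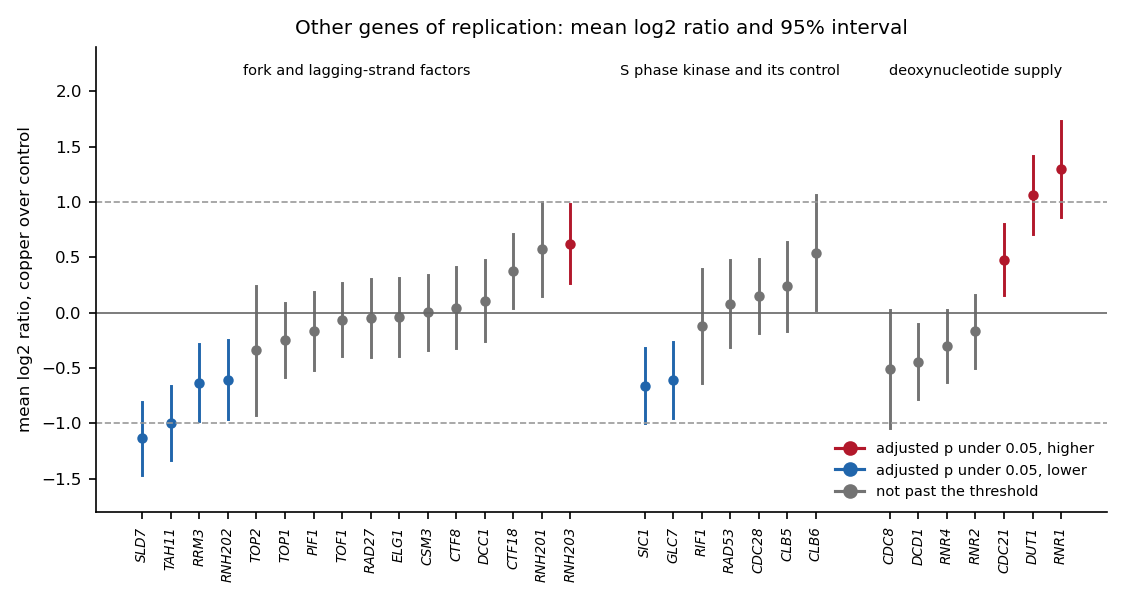
Mean log2 ratio (points) and 95% limma interval (lines) of 30 other genes of replication in 3 lists, with dashed lines at a 2-fold rise and fall. SLD7 and TAH11 have the lowest means and RNR1 and DUT1 the highest; SLD7, RNR1 and DUT1 lie past the dashed lines, and TAH11, at -0.996, and the other 26 means lie between them.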

How the data were processed

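Copper-treated and control yeast were compared on 3 arrays, with 5 scans in all. The log2 ratios are the authors' deposited values, normalized by LOWESS on spots with flag value 0, per the labels. The table states neither log base nor direction: the lowest value, -6.64, is the log2 of 0.01, and copper over control is likely from the channel order. Column medians lie between -0.025 and -0.0017. Scanner and background correction: not given in the sources used here. Of 6912 spots, 5446 had 1 gene symbol in the platform annotation and were averaged to 5379 genes. Names and lengths came from the yeast gene table of assembly R64.

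Means of genes with values on 3 arrays were tested against 0 (two-sided) in limma 3.58.1 (lmFit, eBayes; R 4.3.3), with Benjamini-Hochberg adjustment over 4824 genes and a threshold of 0.05; the code was tested on simulated data. Members and lists were chosen with earlier results of these data known. All members are named, with the 4 largest called genes of each other list. RNH201, RNH202, CLB5, CLB6, RNR2, RNR4, DCD1 and CDC8 were added after their values were seen. The planned promoter description was not made, and no sequence is shown. Alternatives changed the scans, centring, scaling, weights, variance estimate, length correction (loess, span 0.4), 2-fold minimum or arrays. Figures were drawn with matplotlib 3.10.9.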

Additional observations from a re-analysis of the deposited data

How the results depend on the processing

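Members called higher (2) numbered 3 with arrays centred, scaled or weighted, where ORC6 joined them, 1 with both scans of array 3 averaged, 1 with all scans and the array as a random block, 0 with a 2-fold minimum and 0 to 2 with a replicate left out. Using only the low-power scan for array 2 the number was 0, but CDC6 and POL12 have no value there and could not be called. Members called lower (1) numbered 0 with both scans of array 3 averaged, 2 with arrays scaled, 2 with a robust variance, 4 with array weights, 0 with a 2-fold minimum and 0 to 2 with a replicate left out. The random block kept the number at 1 with RFC5 in place of PSF1. Over all genes the calls (1134, 23.5%) numbered 578 (12.0%) without replicate 1, 494 (10.2%) without replicate 2 and 1211 (25.1%) without replicate 3. Intervals within 2-fold, a count chosen after seeing the data, numbered 36 to 37 with a replicate left out and 12 of 13 members with the low-power scan of array 2, an alternative that tests fewer genes.

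The M/G1 median (0.015) was -0.064 with the random block, -0.068 with arrays scaled and -0.15 to 0.035 with a replicate left out. The G1/S median was 0.11 and that of the remaining members 0.053 with the low-power scan of array 2, and they ran from -0.095 to 0.047 and from -0.049 to 0.045 with a replicate left out. That scan left 6 G1/S and 7 remaining members, whose medians without this change were 0.12 and 0.13. With 5 tested genes, the M/G1 median is the value of the middle gene. That gene was MCM5 in the main setting, with the random block and with arrays scaled. It was MCM4 without replicate 2 (-0.15) and MCM2 without replicate 1 (0.035). Why the value of MCM5 moved was not tested.

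Of 40 members, 26 kept their sign under every alternative that gave them a value (13 members had one with the low-power scan of array 2) and 14 changed it, the latter with main means no farther than 0.204 from 0 and none called. ORC3 turned to 0.035 when centred, 0.020 when scaled and 0.023 with the length correction. MCM5 turned to -0.041 with both scans of array 3 averaged, -0.064 with the random block, -0.068 when scaled and -0.20 with array weights. POL1 turned to 0.0020 when centred, 0.054 when scaled, 0.23 with array weights and 0.036 with the length correction. CDC9 turned to 0.022 with both scans of array 3 averaged, 0.014 with the random block, 0.035 when centred, 0.066 with array weights and 0.051 with the length correction. With the length correction PSF3 turned to -0.016 and RFA3 to -0.11, with array weights RFA1 turned to -0.092, and when centred RFC4 turned to 0.018. With a replicate left out, the ranges were -0.16 to 0.095 for ORC3, -0.21 to 0.045 for ORC4, -0.067 to 0.27 for ORC5, -0.082 to 0.24 for MCM2, -0.21 to 0.0086 for MCM4, -0.48 to 0.28 for MCM5, -0.20 to 0.18 for SLD3, -0.11 to 0.17 for PSF3, -0.36 to 0.51 for POL1, -0.040 to 0.11 for DPB2, -0.15 to 0.20 for RFA1, -0.29 to 0.27 for RFC4 and -0.095 to 0.13 for CDC9. Each ratio already pairs treated and control RNA within an array, and no further pairing of samples was made. No intensities were used here, so signal over background could not be judged.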

Other observations

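RFC5 (YBR087W) and POL30 (YBR088C), genes for the clamp loader and the clamp it places, are neighbours in the yeast gene table and lay on opposite sides on average. POL30 minus RFC5 was 1.14, 1.01 and 0.76 log2 units on replicates 1, 2 and 3, with a mean of 0.97 ± 0.19 (SD, n = 3). This pair was chosen after its values were seen, and the difference was not tested. The other neighbours among the members are POL2 and ORC5, and POL2 was not analysed here.

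On replicate 2, POL1 was joined by TOP2, the main type II topoisomerase of the fork, at -1.18, beside 0.016 and 0.15 on replicates 1 and 3, and by RIF1, a regulator of origin timing, at -0.82 beside 0.23 and 0.23. These genes were chosen after their values were seen. The 102 tested genes longer than 4000 bases had median log2 ratios of -0.15, -0.30 and 0.063 on replicates 1, 2 and 3. The log2 ratio and coding length had Spearman's rho of -0.151, -0.194 and -0.0718 over all tested genes, as a description, and 0.112, -0.0478 and 0.0259 over the 40 tested members. The part of length in the values of POL1, TOP2 and RIF1 was not tested.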
